A study of Mus musculus with 12 samples.

Results

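The super-enhancer inside Elovl6 that the study named Elovl6-SE1 was 1 of the 23 viewpoints captured by Tri-C, and its local three-way contacts are described here. Its position is 129551892 on chromosome 3 of mm10, and a local pair is a pair of reporter fragments with both fragment midpoints within 1 Mb of it. The naive and the primed tables of this viewpoint held 3593 such fragment pairs, of 159167 fragment pairs over the 46 tables of the series. Tri-C cuts crosslinked chromatin with DpnII at GATC, ligates it and pulls down molecules that hold the viewpoint fragment with a biotinylated oligonucleotide. When a read holds the viewpoint and 2 more fragments from that chromosome, called reporters, it is taken to record 3 sites that lay together in 1 nucleus. Reporters that are direct neighbours on the chromosome are an exception, since they can be 1 uncut stretch.

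The cells were J1, a line of mouse embryonic stem cells. Naive cells were kept in serum-free medium with LIF and the pair of kinase inhibitors known as 2i. Primed cells were derived from them over several days of culture with Fgf2 and Activin A, without 2i and LIF. Each state had 3 biological replicates, captured with pool 2 of the oligonucleotides, but the deposited counts are 1 table per state. No value here has a replicate error, no test between the states was possible, and a difference between the libraries cannot be told apart from a difference between naive and primed cells. All intervals are 95% intervals of counting error only, since amplified reads are not independent molecules and a read with more reporters adds several pairs.

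Elovl6 encodes an elongase of the endoplasmic reticulum that lengthens saturated and monounsaturated fatty acids. Super-enhancers are clusters of enhancers with dense binding of transcription factors and coactivators, and in embryonic stem cells many lie beside genes that these cells express strongly. An enhancer inside an intron can meet its promoter by looping back over the intervening part of the gene. The expression of Elovl6 was not analysed here.

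The oligonucleotide covers chr3:129551892-129551991 of mm10, inside the RefSeq span of Elovl6, which runs from 129532386 to 129638495 on the plus strand. It has 1 exact match on chromosome 3 of NCBIM37, where it overlaps no exon of the GENCODE vM1 annotation, so it is intronic there. The DpnII fragment around that match is 163 bases long. The oligonucleotide is shown because it defines the viewpoint, the fragment because every read counted here holds it (NCBIM37 chr3:129254760-129254930, plus strand), and the bases before the Elovl6 start because the bin around them had the highest naive to primed ratio (RefSeq, GRCm38.p6 chr3:129532136-129532385, plus strand). Capitals mark the DpnII sites.
Elovl6-SE1 oligonucleotide: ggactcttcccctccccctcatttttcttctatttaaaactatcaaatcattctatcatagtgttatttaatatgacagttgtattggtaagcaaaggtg
Elovl6-SE1 viewpoint fragment: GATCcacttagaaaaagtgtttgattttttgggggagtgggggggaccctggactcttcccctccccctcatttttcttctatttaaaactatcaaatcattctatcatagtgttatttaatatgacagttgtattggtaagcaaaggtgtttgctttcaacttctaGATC
Elovl6 promoter: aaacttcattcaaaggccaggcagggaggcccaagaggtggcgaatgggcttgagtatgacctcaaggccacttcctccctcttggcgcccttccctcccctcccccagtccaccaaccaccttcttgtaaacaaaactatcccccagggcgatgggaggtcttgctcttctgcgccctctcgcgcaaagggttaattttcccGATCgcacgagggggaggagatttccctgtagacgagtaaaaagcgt

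The single GATC in these 250 bases starts at 129532339, and it is palindromic, so both strands read the same. A deposited fragment ends directly before it and another starts directly after it, so the promoter was cut into separate reporters at this site. Of the 32851 mouse promoter windows of this length in the RefSeq table, 41.9% hold a GATC.

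The naive table held 7726 counts and that of primed cells 3961, rank 3 of the 12 viewpoints of the pool in each state. Local pairs made up 4438 naive counts on 2281 distinct fragment pairs, and 2153 primed counts on 1312. Fragment pairs counted more than once held 60.8% of local counts in naive and 52.7% in primed cells. The difference was 8.10 points (5.55 to 10.6), so counting distinct pairs once changes the 2 tables to unlike degrees. No reporter lay in the 1.78 kb between 129551199 and 129552985, around the viewpoint. The pairs with the most counts were formed by directly neighbouring fragments beside that gap. The pair of 129550874-129551152 with 129551157-129551199 had 156 naive and 98 primed counts, and the pair of 129550593-129550869 with 129550874-129551152 had 98 and 42. Next came 129552985-129553238 with 129553243-129553463 in naive cells (36 counts, 14 in primed) and 129545758-129545955 with 129545960-129546035 in primed cells (23 counts, 32 in naive). Pairs of neighbours, with only 1 DpnII site between them, made up 43.5% of local counts in naive and 44.7% in primed cells, a similar part of both tables. The counts cannot tell whether such a pair was 2 separate sites or 1 uncut stretch. Pairs with a reporter under 5 kb from the viewpoint (30.4% of local counts in naive and 26.8% in primed cells) were left out of the shares below unless stated, which leaves 3088 naive and 1577 primed counts. Neighbours made up 47.0% of these naive and 46.7% of these primed counts.

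Naive contacts were more tightly gathered around the enhancer than primed ones. In naive cells 57.4% of all counts were local (56.3 to 58.5%, by Wilson's method), and in primed cells 54.4% were (52.8 to 55.9%), a difference of 3.09 percentage points (1.19 to 4.99) that was -0.489 points (-2.78 to 1.79) when each distinct fragment pair was counted once. Of the local pairs, viewpoint region included, 3291 of 4438 had both reporters within 100 kb in naive cells, or 74.2% (72.8 to 75.4%). In primed cells 1258 of 2153 did, or 58.4% (56.3 to 60.5%). The difference of 15.7 points (13.3 to 18.2) lay beyond counting error and was 14.5 points with distinct pairs counted once. Reporters over 100 kb apart from each other made up 13.2% of local pairs in naive (12.0 to 14.4%) and 19.4% in primed cells (17.5 to 21.4%). This difference of -6.22 points was -3.93 with distinct pairs counted once and -11.5 without pairs of neighbouring fragments.

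The shift had a direction along the chromosome. Pairs with both reporters upstream of the viewpoint, on the side of the Elovl6 promoter and of Enpep, made up 919 of 3088 counts in naive cells (29.8%, 28.2 to 31.4%) and 668 of 1577 in primed cells (42.4%, 39.9 to 44.8%). Pairs with both reporters downstream, on the side of the Elovl6 3′ end and of Egf, made up 53.4% in naive (51.6 to 55.1%) and 43.4% in primed cells (40.9 to 45.8%). With distinct pairs counted once this downstream difference of 9.99 points fell to 3.51 (-0.316 to 7.30), which includes 0. Pairs with 1 reporter on each side made up 16.9% (15.6 to 18.2%) and 14.3% (12.6 to 16.1%), a difference of 2.60 points (0.385 to 4.74) that was 7.01 (3.87 to 10.05) with distinct pairs counted once and 5.09 (1.29 to 8.78) without pairs of neighbouring fragments.

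Of the segments compared here, the Elovl6 span held the largest share in both states, and a larger one in naive cells. The viewpoint lies inside this span and contacts fall with distance, so its first place shows no preference for the gene. The segments also differ in length and in distance from the viewpoint. At least 1 reporter lay inside the gene in 2056 naive counts, 66.6% of local pairs (64.9 to 68.2%, an exact Clopper-Pearson interval). For primed cells the count was 788, or 49.97% (47.5 to 52.5%). Ratios are naive share over primed share throughout. Here the ratio was 1.33, and its interval, 1.23 to 1.45, comes from splitting the summed count between the states. The 199.6 kb between the start of Enpep and the start of Elovl6, which hold no protein-coding gene, went the other way, with 649 naive counts, 21% (19.6 to 22.5%), and 501 primed counts, 31.8% (29.5 to 34.1%). Upstream of the Enpep start the shares were 9.65% and 18%, a ratio of 0.536 (0.454 to 0.633). Between the Elovl6 end and the Egf end the naive share was again higher, with 8.45% against 5.52% (ratio 1.53, 1.2 to 1.98), while the Egf span did not differ beyond counting error (6.09% and 6.59%, ratio 0.923, 0.723 to 1.18). Beyond the Egf start the naive share was the lower one, with 7.77% against 11.03% (ratio 0.704, 0.577 to 0.861). These segments follow the gene boundaries and were chosen after their values were seen.

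**Figure D1:**
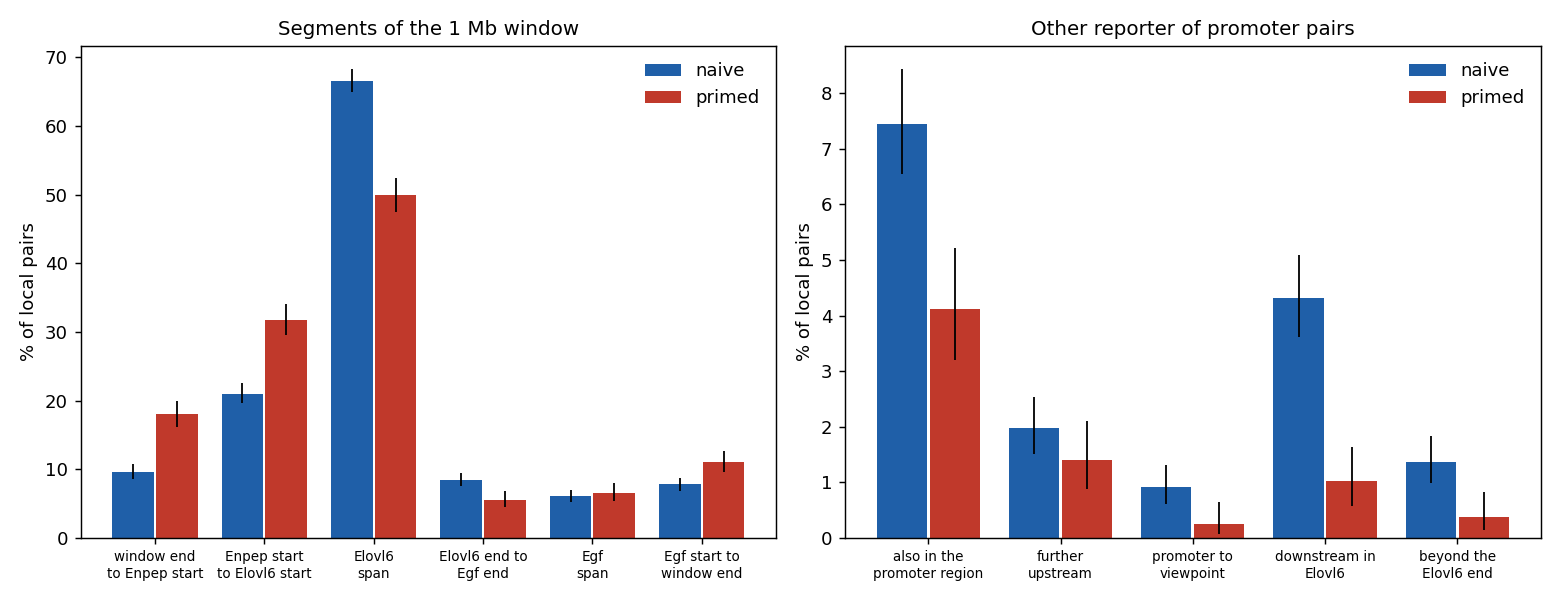
Left, local pairs with at least 1 reporter in each of 6 segments of the 1 Mb window; right, local pairs with a reporter within 5 kb of the Elovl6 start, split by the place of the other reporter. Bars are shares of local pairs outside the viewpoint region in percent, with exact 95% intervals of counting error; the Elovl6 span falls from 66.6% in naive to 49.97% in primed cells, and the upstream segments and the one beyond the Egf start are higher in primed cells.

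The Elovl6 promoter, at -19.5 kb from the viewpoint, was seen more often among naive than among primed pairs. Within 5 kb of the start, from 129527386 to 129537386, lay a reporter of 494 naive counts, 16% of local pairs (14.7 to 17.3%), on 290 distinct fragment pairs. In primed cells there were 113 counts, 7.17% (5.94 to 8.55%), on 69 distinct pairs. This made a ratio of 2.23 (1.82 to 2.76). Within 2 kb of the start the ratio was 2.85, and without pairs of neighbouring fragments it was 2.90 (2.19 to 3.92). The region also holds Gm35986, a long noncoding RNA gene whose span from 129527467 to 129532388 reaches into the first bases of Elovl6, so contacts of the 2 genes cannot be told apart there.

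Both fragments made by the GATC shown above carried the change. The fragment before it, 129532017-129532338, was seen in 24 naive and 3 primed counts, a ratio of 4.09 (1.24 to 21.2). The fragment after it, 129532343-129532536, which holds the Elovl6 start, was seen in 53 and 5 counts, a ratio of 5.41 (2.18 to 17.4). Outside the viewpoint region, the fragments with the most counts lay closer to the enhancer and had ratios whose intervals hold 1. These were 129545758-129545955 with 90 and 50 counts (ratio 0.919, 0.644 to 1.33), 129545960-129546035 with 70 and 43 (0.831, 0.561 to 1.25), 129545632-129545753 with 74 and 39 (0.969, 0.649 to 1.47) and, on the other side, 129558592-129558698 with 59 and 41 (0.735, 0.485 to 1.12).

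A higher promoter share in naive cells was also seen in counts that the 1 Mb rule leaves out. These counts come from the same tables, and a read with more reporters can add to both kinds of pair. They are therefore not independent of the local pairs. In pairs with 1 local reporter and the other beyond 1 Mb, a reporter at the promoter was seen in 13.1% of 922 naive counts (121 counts, 11.0 to 15.5%) and in 3.50% of 572 primed counts (20 counts, 2.15 to 5.35%). The ratio was 3.75 (2.33 to 6.36). The Elovl6 span as a whole had a ratio of 1.2 in these pairs (1.04 to 1.38), and the interval between Enpep and Elovl6 one of 0.967 (0.749 to 1.25), which holds 1, unlike in the local pairs. Upstream of the Enpep start there were 64 naive and 63 primed counts, and the ratio of 0.630 (0.438 to 0.907) was below 1 as it was in the local pairs. The Egf span (0.485, 0.275 to 0.844) and the stretch beyond the Egf start (0.632, 0.423 to 0.945) were also below 1, and between the Elovl6 end and the Egf end the ratio was 1.17 (0.765 to 1.82).

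The promoter pairs were then split by their other reporter, which shows with what the enhancer and the promoter met. Where it lay downstream of the viewpoint inside Elovl6 there were 133 naive and 16 primed counts, 4.31% and 1.01% of local pairs, a ratio of 4.25 (2.52 to 7.64). Beyond the Elovl6 end there were 42 and 6 counts (ratio 3.57, 1.51 to 10.3), and between promoter and viewpoint 28 and 4 (3.57, 1.25 to 14). Where both reporters lay at the promoter, 230 and 65 counts gave a ratio of 1.81 (1.37 to 2.42), and 172 and 55 of these counts were neighbouring fragments. With a reporter further upstream there were 61 and 22 counts, a ratio of 1.42 (0.857 to 2.42) that includes 1. This split was chosen after the promoter values had been seen.

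A profile in bins of 10 kb centred on the viewpoint gave the same order along the chromosome. Of the 40 bins with a centre within 200 kb, 30 had at least 40 counts over both states. Among these 15 were past 1.5-fold either way (50%), with 6 higher in naive (20%) and 9 higher in primed cells (30%). The same rule called 30.3% of 33 bins at Txnip-distal-SE, 57.5% of 40 at cMyc and 60% of 10 at Klf4-distal-SE, viewpoints of the same pool, so a share of 50% is not particular to Elovl6. The sides differed, with 10 of 14 upstream bins called (71.4%), 9 of them higher in primed cells, and 5 of 16 downstream bins (31.2%), all 5 higher in naive cells. The median naive to primed ratio was 0.373 over the upstream bins and 1.19 over the downstream bins. The balance of the calls moved with the settings. More bins stayed higher in primed cells with bins of 20 kb (4 naive and 8 primed of 19) and a minimum of 20 (6 and 14 of 37). So they did with 2.5 kb excluded (6 and 10 of 31), all pairs as denominator (5 and 9 of 30) or pairs within 200 kb (6 and 10 of 28). More were higher in naive cells at a minimum of 80 (5 and 1 of 16) and with 15 kb excluded (7 and 6 of 25). Of 36 bins of 5 kb under the same minimum of 40, 14 were called higher in naive and 3 in primed cells. With distinct pairs counted once 7 and 3 of 20 bins of 10 kb were. Without pairs of neighbouring fragments it was 6 and 3 of 21.

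Named bins show where these values sit. The bin at -20 kb, with the Elovl6 start, had the largest naive share and also the highest ratio, 2.23. The bin at 10 kb had the same naive count of 494 and the largest primed share, 14.3%, with a ratio of 1.12 (0.952 to 1.31). The bin at 20 kb, inside Elovl6, had 415 naive and 113 primed counts, a ratio of 1.88 (1.52 to 2.33). The bins at -10 and 30 kb, next by primed share, had ratios of 1.22 (1.01 to 1.48) and 1.48 (1.21 to 1.83). Beyond the 3′ end of the gene, the bins at 110 and 100 kb had the next highest ratios, 2.07 (1.27 to 3.51) from 85 and 21 counts and 2.00 (1.29 to 3.21) from 102 and 26. With distinct pairs counted once the bin at 110 kb was at 1.69 (0.936 to 3.20), and without pairs of neighbouring fragments the bin at 100 kb was at 1.57 (0.933 to 2.74), and both intervals include 1.

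The lowest ratios all lay in the interval between Enpep and Elovl6. The bin at -130 kb (129416892-129426891), in which one end of the long noncoding RNA gene Gm35787 lies, had 10 naive and 34 primed counts, a ratio of 0.150 (0.0662 to 0.311). The bin at -60 kb (129486892-129496891) had 25 and 55 counts (0.232, 0.139 to 0.379), and the bin at -150 kb (129396892-129406891) had 19 and 40 (0.243, 0.133 to 0.429). Primed counts exceeded naive counts in these bins although the primed table was the smaller one. With distinct pairs counted once the bin at -150 kb had 11 and 14 pairs and a ratio of 0.471 (0.194 to 1.12) that includes 1, while the bins at -130 and -60 kb were at 0.284 (0.113 to 0.659) and 0.343 (0.188 to 0.611). From 50 to 200 kb upstream as a whole there were 239 naive and 337 primed counts, a ratio of 0.362 (0.306 to 0.429) that was 0.484 (0.396 to 0.592) with distinct pairs counted once.

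**Figure D2:**
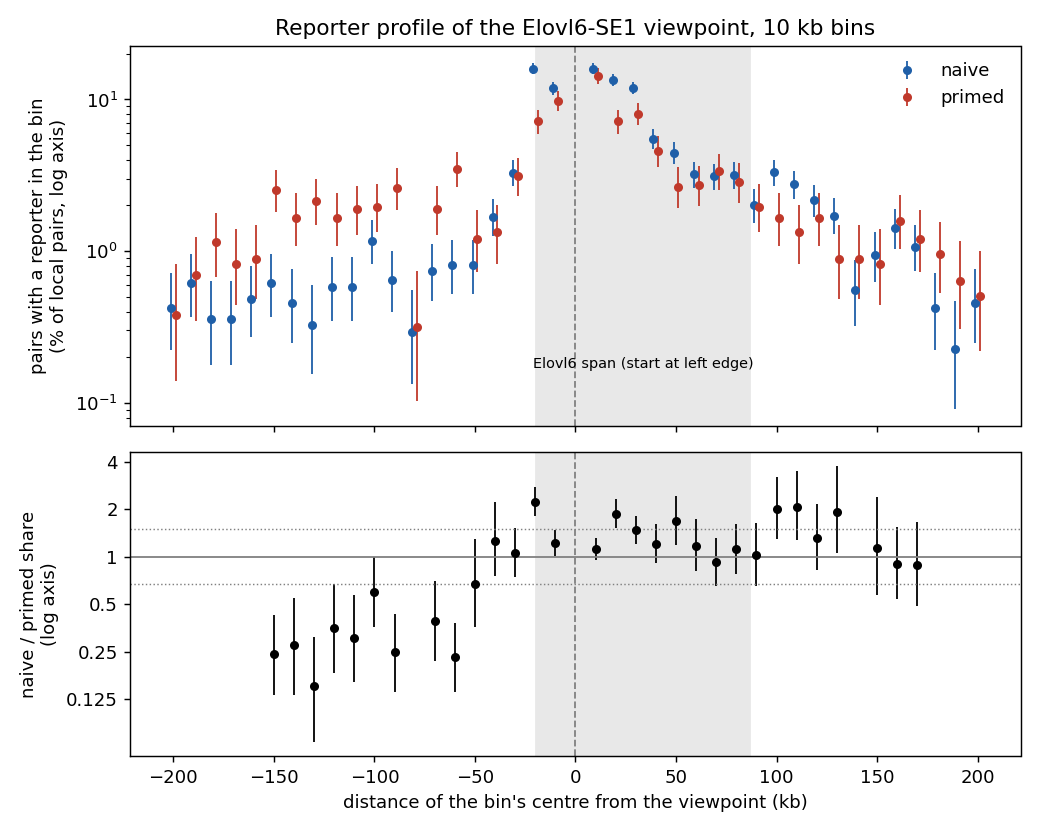
Top, share of local pairs with a reporter in each 10 kb bin (percent, log axis) against the distance of the bin from the viewpoint in kb, for naive and primed cells, with exact 95% intervals; bottom, naive over primed ratio of the 30 bins with at least 40 counts, dotted lines at 1.5-fold either way. The bin of the Elovl6 start at -20 kb is highest at 2.23, and 9 upstream bins lie under the lower dotted line.

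Wider bands of distance, out to the 1 Mb limit, gave the reach of each side. Upstream, the naive share was the higher one up to 50 kb, with ratios of 1.58 (1.34 to 1.86) from 5 to 20 kb and 1.33 (1.09 to 1.62) from 20 to 50 kb. It was the lower one beyond, with 0.381 (0.292 to 0.496) from 50 to 100 kb, 0.346 (0.277 to 0.432) from 100 to 200 kb, 0.555 (0.468 to 0.657) from 200 to 500 kb and 0.367 (0.240 to 0.558) from 500 to 1000 kb. Downstream, where Elovl6 extends to 86.6 kb from the viewpoint, the change of sign came later. The ratio was 1.16 (1.01 to 1.34) from 5 to 20 kb, 1.52 (1.32 to 1.76) from 20 to 50 kb, 1.29 (1.09 to 1.55) from 50 to 100 kb and 1.16 (0.957 to 1.41) from 100 to 200 kb. It fell below 1 only from 200 to 500 kb (0.696, 0.550 to 0.882) and from 500 to 1000 kb (0.569, 0.407 to 0.797). Single fragments were sampled thinly in both states. Outside the viewpoint region 1080 fragments were seen in naive and 1029 in primed cells, and the 584 seen in both were 54.1% of the naive and 56.8% of the primed ones.

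The pairs of bins show which reporters were seen together with the viewpoint, neighbouring fragments included. In a matrix of 20 kb bins within 200 kb, 68.0% of the naive and 69.2% of the primed counts had both reporters in the same bin, so most counts lay on the diagonal in both states. The bins with the most counts with themselves were those at 0, 20, -20, 40 and 60 kb, with 360 and 160, 342 and 100, 282 and 80, 212 and 68, and 91 and 36 naive and primed counts. Of 30 bin pairs with at least 20 counts, 22 were past 1.5-fold (73.3%), 14 of them higher in naive (46.7%) and 8 in primed cells (26.7%). This minimum is on counts summed over both states. The naive table was the larger one, so pairs high in naive cells passed it more easily, and the balance depends on it. Pairs of both kinds fell below it, such as -140 with 20 kb (0 naive and 7 primed counts) and -20 with 100 kb (11 and 0). Of 25 bin pairs with distinct pairs counted once 8 were higher in naive and 7 in primed cells, and of 22 without pairs of neighbouring fragments 15 and 2.

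Only bin pairs that met the minimum on summed counts were ranked by ratio. Their highest ratio belonged to the three-way contact of the enhancer, the promoter bin at -20 kb and the bin at 20 kb inside the gene. It had 59 counts in naive cells, 1.91% of local pairs (1.46 to 2.46%), on 54 distinct fragment pairs. In primed cells 3 counts were left, 0.190% (0.0392 to 0.555%). The ratio of 10.0 (3.27 to 50.1) was 10.8 (3.50 to 54.0) with distinct pairs counted once. Next were the promoter bin with the bin at 40 kb, 46 and 6 counts (3.92, 1.67 to 11.2), and the bins at -40 and -20 kb, 28 and 5 counts (2.86, 1.09 to 9.49). With distinct pairs counted once the first of these was at 5.70 (2.05 to 22.0) and the second at 2.4 (0.874 to 8.18), which includes 1. Like the pair of -20 and 20 kb, both passed the minimum on naive counts alone. The ranking, first place included, depends on that minimum. The pair of -20 and 100 kb fell below it with 11 naive and 0 primed counts. It therefore has no finite ratio, only a lower limit of 1.28. The pair of 0 and 120 kb fell below it with 18 and 1 counts (9.19, 1.45 to 383).

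Since contacts fall with separation, the promoter pairs were set beside the other bin pairs of the same separation within 200 kb. Pairs with the bin of the viewpoint at 0 kb were included. That bin lacks its reporters under 5 kb from the viewpoint, so its counts are too low for its width. Its pairs were the highest others in naive cells at every separation used here, so ranks above them depend on this exclusion. The pairs were not matched for distance from the viewpoint, and most others lie further from it. The promoter pairs were chosen after their counts had been seen, so their ranks are a description. In naive cells the pair of -20 and 20 kb ranked 1 of 19 with 59 counts, where the highest other pair had 29 and the median was 2. In primed cells its 3 counts ranked 7 of 19, with 18 as the highest other value. The pair of -20 and 40 kb ranked 1 of 18 in both states, with 46 naive and 6 primed counts against at most 17 and 5 elsewhere. The pairs of the promoter bin with 60 and 80 kb also ranked first in naive cells, with 19 and 16 counts against at most 15 and 14, while in primed cells their 4 and 3 counts lay below the highest others, 8 and 6. The pair of -20 and 100 kb ranked 2 of 15 in naive cells with 11 counts, and had none in primed cells. The pair of -40 and -20 kb ranked 4 of 20 in naive and 6 of 20 in primed cells, where the highest other pairs had 92 and 29 counts. Over the whole stretch from 10 to 130 kb downstream the promoter bin had 156 naive counts on 132 distinct fragment pairs and 16 primed counts on 11, a ratio of 4.98 (2.97 to 8.93).

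A different block of the matrix was fuller in primed cells. Reporters 50 to 150 kb upstream were seen together with reporters 10 to 50 kb downstream in 12 naive and 31 primed counts, a ratio of 0.198 (0.0925 to 0.396). With the downstream stretch taken from 10 to 130 kb, as for the promoter bin, there were 31 and 42 counts, a ratio of 0.377 (0.229 to 0.614). Both reporters lay in that upstream stretch in 96 naive and 145 primed counts, of which 69 and 72 were neighbouring fragments (ratio 0.338, 0.258 to 0.441). The lowest ratios by the naming rule were those of the bins at -140, -60 and -180 kb with themselves, 0.188 (0.0668 to 0.467), 0.255 (0.139 to 0.454) and 0.279 (0.126 to 0.588), from 7 and 19, 19 and 38, and 12 and 22 counts. With distinct pairs counted once they were at 0.42 (0.136 to 1.22, which includes 1), 0.382 (0.181 to 0.780) and 0.386 (0.147 to 0.957). These blocks were outlined after the matrix had been seen.

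**Figure D3:**
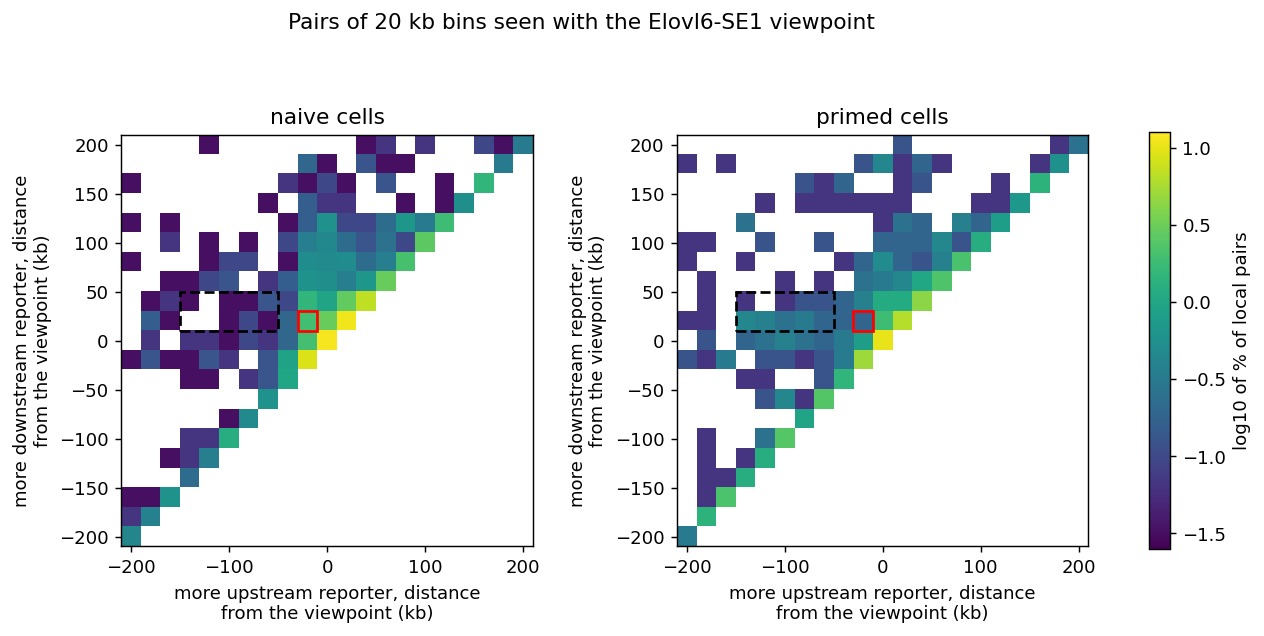
Share of local pairs for each pair of 20 kb bins (log10 of percent, colour), with the distance of both reporters from the viewpoint in kb and white for no count, in naive and primed cells. The red square is the pair of -20 and 20 kb with 59 naive and 3 primed counts, and the dashed box is the upstream block with 12 and 31.

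Gene starts further away carried few counts. Within 10 kb of the starts of 12 protein-coding genes in the window, 5 were past 1.5-fold either way (41.7%), Elovl6 and Cfi higher in naive cells (16.7%) and Enpep, Lrit3 and Casp6 higher in primed cells (25%). Of the 34 bins of 10 kb within 1 Mb that passed the minimum, 50% were past 1.5-fold. Elovl6 had 604 and 148 counts, a ratio of 2.08 (1.74 to 2.51). Enpep, which encodes glutamyl aminopeptidase and starts at -219 kb, had 36 naive and 49 primed counts (0.375, 0.237 to 0.589).

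On the other side, Egf, the gene of epidermal growth factor, had 22 and 15 counts (0.749, 0.371 to 1.55). Lrit3, a gene of retinal signalling, had the lowest ratio with 10 and 27 counts (0.189, 0.0817 to 0.403), and Rrh, which encodes a retinal opsin, had 20 and 13 (0.786, 0.372 to 1.72). The highest ratio was that of Cfi, the complement factor I gene, from 33 and 7 counts (2.41, 1.05 to 6.45), a wide interval. Casp6, which encodes a caspase, had 7 and 8 counts, and its ratio of 0.447 (0.138 to 1.41) has an interval that holds 1. The regions of Lrit3, Rrh, Gar1 and Cfi overlap their neighbours and share counts. With regions of 5 kb on each side 8 of 9 starts were past 1.5-fold, 5 higher in naive and 3 in primed cells, and with 25 kb on each side it was 1 and 5 of 12.

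**Figure D4:**
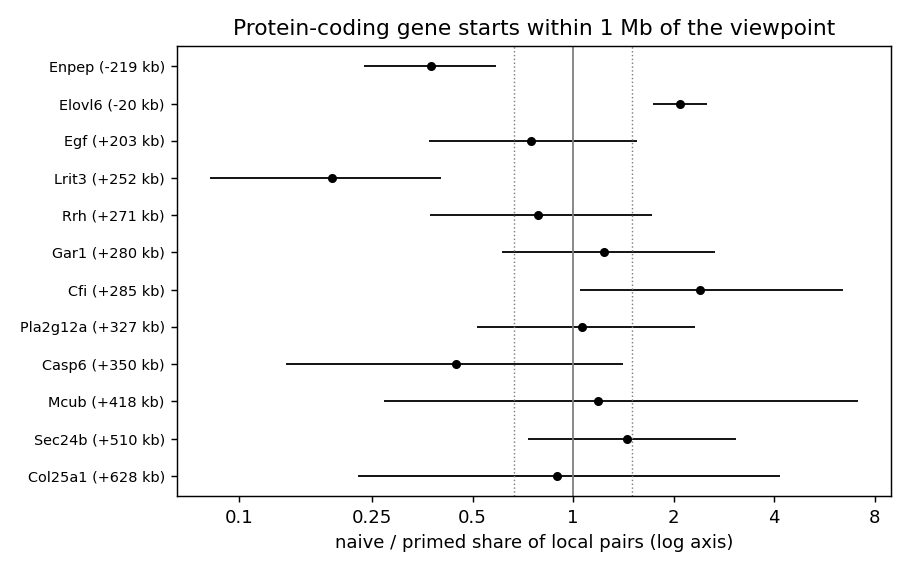
Naive over primed ratio of the share of local pairs with a reporter within 10 kb of each of 12 gene starts (log axis), with 95% intervals of counting error and dotted lines at 1.5-fold; distances from the viewpoint stand beside the names. Elovl6 has a narrow interval above 1.5, and most distant starts have intervals that hold 1.

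Other viewpoints of the pool differed from Elovl6 in part. The local share was higher in naive cells at these viewpoints too, by 8.48 points (7.05 to 9.91) at Txnip-distal-SE, 14.4 (11.6 to 17.1) at Klf4-distal-SE and 7.25 (6.11 to 8.39) at cMyc, all above the 3.09 at Elovl6. The near share, both reporters within 100 kb, also fell from naive to primed cells at Klf4-distal-SE, by 17.3 points (13.6 to 20.96), and at cMyc, by 5.33 (3.95 to 6.71), while at Txnip-distal-SE, on the same chromosome, it was 2.28 points higher in primed cells (naive minus primed -2.28, -4.14 to -0.407). The rise of pairs with both reporters on the upstream side of the chromosome was seen at cMyc too (naive minus primed -13.1 points, -14.7 to -11.6), whereas Klf4-distal-SE had the opposite sign (17.7 points, 12.7 to 22.6) and Txnip-distal-SE was within counting error of 0 (0.5 points, -1.70 to 2.70). Upstream means lower coordinates here, and the genes lie on different sides at these viewpoints. The difference in pairs with 1 reporter on each side, 2.60 points at Elovl6, was 1.36 (-0.298 to 2.97) at Txnip-distal-SE, 0.551 (-3.05 to 4.19) at Klf4-distal-SE and -1.21 (-2.40 to -0.0348) at cMyc. These viewpoints were captured from the same libraries, and none of these differences between viewpoints was tested.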

How the data were processed

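The authors ran CapCruncher in its capture mode on mm10, selected reads with at least 2 cis reporters by their own scripts and deposited counts of fragment pairs, not normalized and without a replicate. Version, aligner and duplicate handling were not given in the sources used here. Pool 2 had 6 samples, which entered as 1 pooled table per state. Fragment ends follow BED coordinates without the GATC, and fragments were placed by midpoint. Shares have Wilson intervals (differences: Newcombe) or exact Clopper-Pearson intervals (ratios: conditional split of the counts). Python 3.11.15, numpy 2.4.6, scipy 1.17.1 and matplotlib 3.10.9 were used, and the intervals were tested on simulated data. Genes are those of RefSeq GRCm38.p6; strands of genes outside its promoter table came from GENCODE vM1. The start of 1 gene in the window is not reported here. Named were Elovl6, up to 3 of the nearest gene starts on each side, and the extreme bins, bin pairs, fragments and genes. Members, rules and alternatives were chosen with earlier results of these data known.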

Additional observations from a re-analysis of the deposited data

How the results depend on the processing

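No paired analysis was possible because each state had a single pooled table, which also prevented leaving out replicates. Of 62 alternative values 43 stayed within the interval (or 1.5 times the count) of the reported value, 18 moved and 1 reversed. Without the viewpoint region the local share difference was 2.09 points (-0.0510 to 4.23), which includes 0. It reversed to -0.489 points (-2.78 to 1.79) with distinct pairs counted once and was 1.08 (-0.778 to 2.94) for 2 Mb, and both intervals also include 0. The near share difference was 10.4 points for 200 kb and 20.3 without neighbouring fragments. With distinct pairs counted once the downstream, straddling and separation differences were 3.51, 7.01 and -3.93 points, and without neighbouring fragments 5.99, 5.09 and -11.5. The Elovl6 span ratio was 1.57 with 15 kb excluded and 1.2 for pairs within 200 kb. The promoter ratio was 2.85 within 2 kb and 2.90 without neighbouring fragments. Bins past 1.5-fold were 6 at a minimum of 80 counts and 9 without neighbouring fragments, gene starts 8 within 5 kb, and bin pairs 14 at a minimum of 40 counts and 13 in 40 kb bins. Distances beyond 200 kb, single fragments and gene starts other than Elovl6 are limited by depth.
The exclusion of neighbouring fragments was added after the data had been seen. The cause of these shifts was not tested.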
